A study of Dugesia japonica with 15 samples.

Results

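The interaction of DjTcf4 RNAi with amputation is the difference of differences in a layout of 4 groups: the change with DjTcf4 RNAi at 5 days post amputation (5 dpa), minus the change with DjTcf4 RNAi in intact animals. All 15 libraries of the series enter it: 3 DjTcf4 RNAi 5 dpa (replicates 1, 3 and 4), 4 control RNAi 5 dpa, 4 DjTcf4 RNAi intact and 4 control RNAi intact. Because DjTcf4 RNAi intact replicate 2 stands apart from its group, the contrast was fitted with all 15 libraries and with the 14 that remain without it. Levels per library come from the scaling of all 15. The animals were the freshwater planarian *Dugesia japonica*. RNA was taken from groups of animals, as trunk fragments at 5 dpa and as whole bodies when intact, so amputation and the part of the body taken cannot be told apart. All groups received RNAi, and the labels do not say what the control RNAi was directed against. Nor do they tell if each replicate was its own group of animals. The p-values therefore reflect only variation among these libraries, some of which may be technical.

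Planarians rebuild missing parts from neoblasts, dividing stem cells whose progeny differentiate while the remaining tissue is remodelled. In other animals TCF proteins are DNA-binding partners of β-catenin in Wnt signalling, which in planarians helps to set the identity of tissue along the head-to-tail axis. RNAi lowers the mRNA of a target gene, and a gene whose response to it depends on regeneration has a difference of differences away from 0. On the log2 scale, 0 means that RNAi multiplied a gene's level by the same factor at 5 dpa and in intact animals. A negative value means that the ratio of DjTcf4 RNAi to control was lower at 5 dpa than in intact animals. In bulk RNA, fewer cells of a type and less RNA per cell cannot be told apart. The row of DjTcf4 is not known, since the deposited table does not pair its gene IDs with names, so the knockdown itself was not checked, and no role is given for any gene below. IDs are printed for the 2 genes below 0 and the 2 above 0 with the smallest p-values in the fit of all libraries, among genes with a mean of at least 5 CPM (counts scaled to the size of the library) and the same sign without that replicate; others are described by their values.

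Total counts per library ranged from 8136366 to 12224216. DjTcf4 RNAi intact replicate 2 deviated from its group mean by a median of 0.422 on the log2 scale over all tested genes, against 0.121 to 0.260 in the other 14 libraries. Among genes with a mean of at least 5 CPM, it was the highest or the lowest of the 4 DjTcf4 RNAi intact libraries for 86.6%. Leaving it out moved the difference of differences by a median of 0.152 log2 per gene, against 0.047 to 0.101 for leaving out any other single library. On the first principal component of log2 CPM, the axis of largest spread among the 15 libraries, DjTcf4 RNAi intact replicate 2 scored 55.9. The 5 dpa libraries scored 15.6 to 56.0, and the other intact libraries -69.2 to -31.4. Why this intact library lay with the 5 dpa libraries on that axis was not tested.

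**Figure D1:**
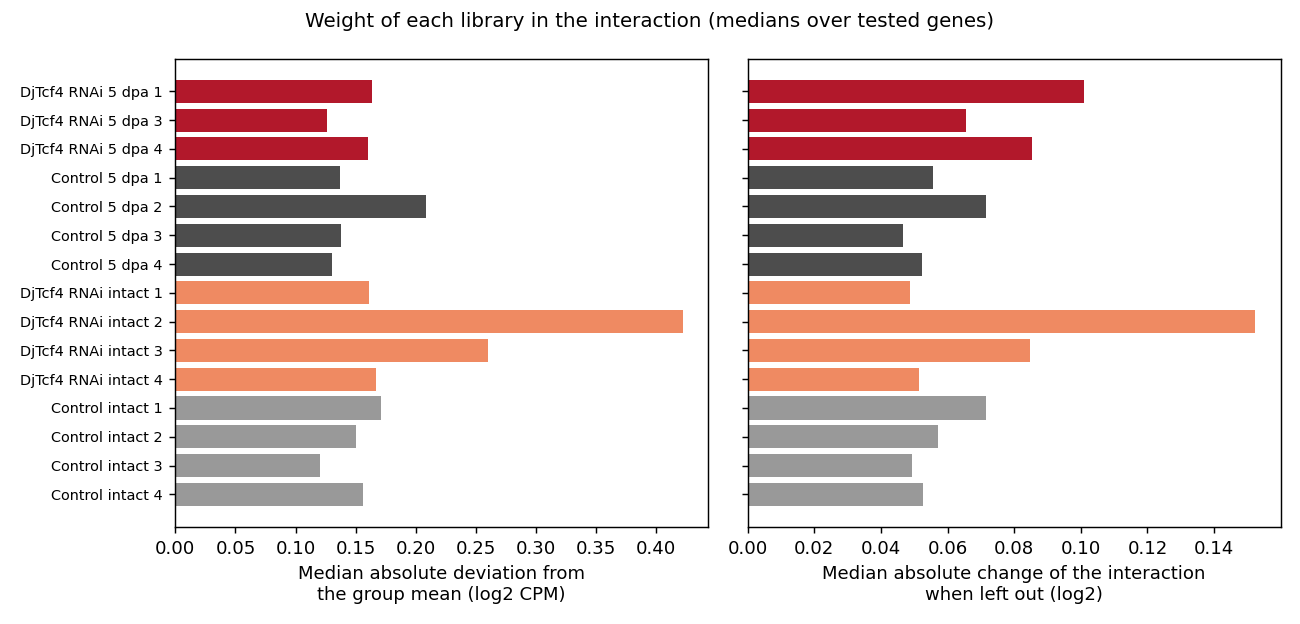
Horizontal bars give, for each of the 15 libraries, the median absolute deviation from the group mean in log2 CPM (left) and the median absolute change of the log2 difference of differences when that library is left out (right), over the tested genes. DjTcf4 RNAi intact replicate 2 has the longest bar in both panels, at 0.422 and 0.152.

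With all 15 libraries, 1 gene fell more with DjTcf4 RNAi at 5 dpa than in intact animals, and 0 genes had a difference of differences above 0 by the same test. This was 0.00585% of the 17094 genes tested with edgeR's quasi-likelihood test (Benjamini-Hochberg adjusted p under 0.05). Without DjTcf4 RNAi intact replicate 2, edgeR called 3 genes below 0 and 0 above (0.0177% of 16922), among them the gene called with all libraries. DESeq2 called 6 genes below 0 and 1 above (0.041%) with all libraries, and 9 below and 5 above (0.0827%) without the replicate. Limma-voom called 4 below and 0 above (0.0234%) with all libraries, and 3 below and 0 above (0.0177%) without it. The edgeR calls were thus all below 0 in both fits.

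DJKW.14394 was the gene called in both. It stood at 49.3, 56.4 and 53.5 CPM in the DjTcf4 RNAi 5 dpa libraries, against 180, 185, 183 and 223 CPM in the control 5 dpa libraries. In intact animals it stood at 199, 240, 184 and 171 CPM with DjTcf4 RNAi, against 303, 300, 315 and 310 CPM in control. The DjTcf4 RNAi libraries lay below every control library of their stage, and the 3 from 5 dpa were the lowest of all 15.

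The log2 ratio of DjTcf4 RNAi to control for DJKW.14394 was -1.86 at 5 dpa and -0.63 in intact animals. The difference of differences was a log2 value of -1.23 (SE 0.165, 95% interval -1.58 to -0.88, edgeR adjusted p = 0.0125). The ratio at 5 dpa was therefore 0.426 of that in intact animals. Without DjTcf4 RNAi intact replicate 2, which held the highest of the 4 levels in its group, the log2 value was -1.10 (SE 0.131, edgeR adjusted p = 0.00123). Without that replicate, the call held under all 21 further alternatives tried, with log2 values between -1.18 and -1.05 and adjusted p between 9.88e-12 and 0.00821. With all 15 libraries it was lost under 7 of 22, listed with the processing alternatives.

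On the scale of CPM itself, DJKW.14394 gave a different picture. DjTcf4 RNAi 5 dpa libraries averaged 53.1 ± 3.59 CPM (SD, n = 3), against 193 ± 20.5 CPM in control 5 dpa (n = 4). DjTcf4 RNAi intact libraries averaged 198 ± 30.1 CPM, against 307 ± 7.17 CPM in control intact (SD, n = 4 each). The loss in CPM at 5 dpa exceeded that in intact animals, as a difference of differences of -31.1 CPM (SE 18.7), and without DjTcf4 RNAi intact replicate 2 the value was -12.5 CPM (SE 14.2). Neither was as large as 2 standard errors. The departure from 0 was thus clear for the ratio and not for the amount lost.

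DJKW.3165 was called without DjTcf4 RNAi intact replicate 2 and not with all libraries. It stood at 34.3, 42.4 and 37.6 CPM in DjTcf4 RNAi 5 dpa libraries, against 108, 112, 119 and 142 CPM in control 5 dpa. With DjTcf4 RNAi, intact animals had 135, 173, 107 and 112 CPM, against 181, 161, 184 and 166 CPM in control. The groups did not overlap at 5 dpa. In intact animals they overlapped through DjTcf4 RNAi replicate 2 alone, at 173 CPM.

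The difference of differences for DJKW.3165 was a log2 value of -1.26 with all libraries (SE 0.209, edgeR adjusted p = 0.102). In the 14 other libraries it was smaller in size and more precise, at -1.08 (SE 0.157, edgeR adjusted p = 0.0126). That call was lost when control intact replicate 2, DjTcf4 RNAi intact replicate 1, or DjTcf4 RNAi 5 dpa replicate 1 or 4 was also left out, with adjusted p from 0.0531 to 0.0825. On the CPM scale the difference was -40.4 (SE 17.97) with all libraries and -24.0 (SE 12.5) without the replicate.

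The other gene called without the replicate was an abundant one, with a mean of 1658 CPM. It stood at 623, 798 and 615 CPM in DjTcf4 RNAi 5 dpa libraries, against 1376, 1603, 1338 and 1626 CPM in control 5 dpa. In intact animals it stood at 1897, 2572, 1906 and 1801 CPM with DjTcf4 RNAi, against 2388, 2097, 2162 and 2066 CPM in control. DjTcf4 RNAi intact replicate 2 was the highest of all 15 libraries, and the other 3 of its group lay below every control intact library.

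For this abundant gene the log2 value was -1.04 with all libraries (SE 0.186, edgeR adjusted p = 0.161) and -0.89 without the replicate (SE 0.140, edgeR adjusted p = 0.0246). Without the replicate the call was lost under 10 of 21 further alternatives, the replicate block among them (adjusted p up to 0.171). Its CPM difference was -673 (SE 214) with all libraries and -468 (SE 119) without the replicate, each over 2 standard errors. Every library gave it a fractional count. Reads shared with near-identical genes may have been split, which makes its level uncertain.

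**Figure D2:**
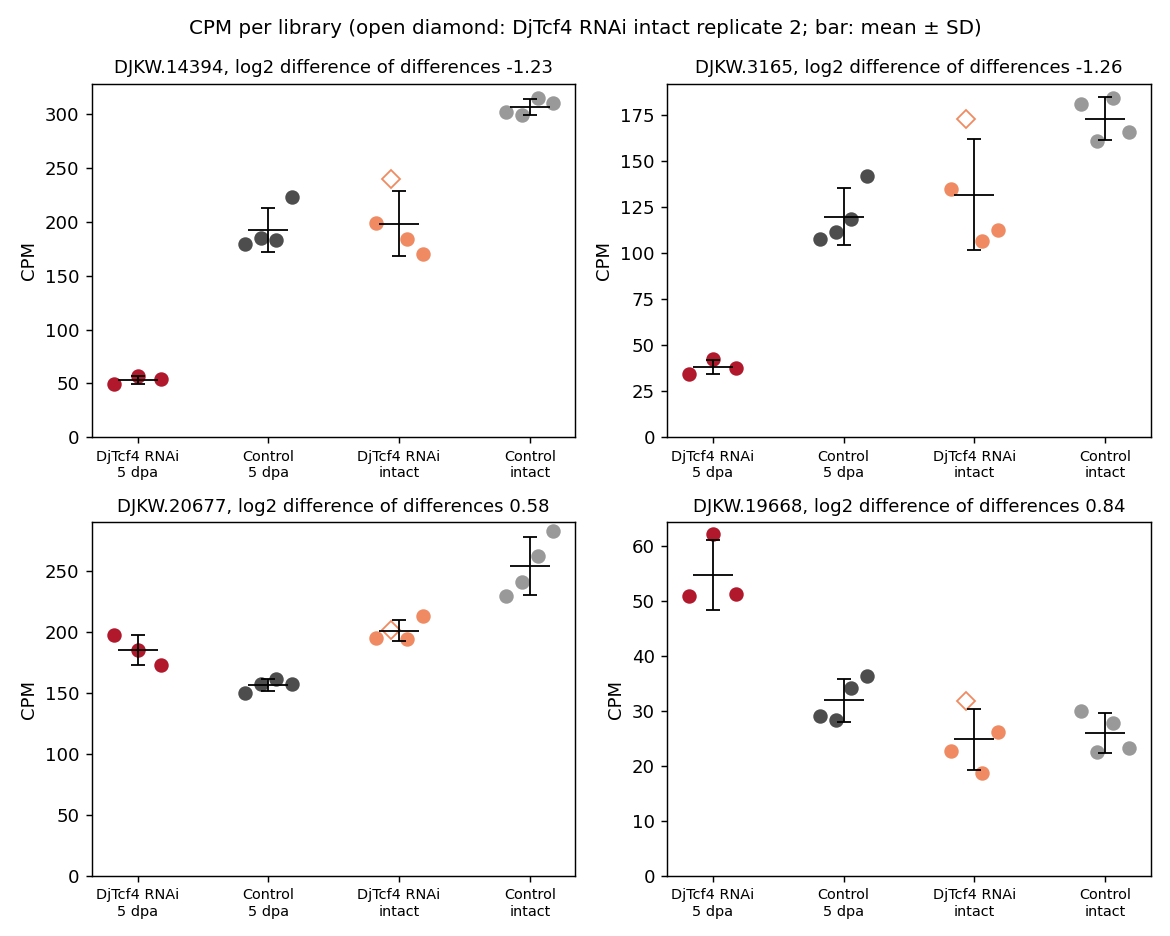
CPM (vertical axes, from 0) in each library of the 4 groups for the 2 genes below 0 (top) and the 2 above 0 (bottom) named by ID; points are libraries, the open diamond is DjTcf4 RNAi intact replicate 2, and bars are means ± SD (n = 3 for DjTcf4 RNAi 5 dpa, n = 4 otherwise). DJKW.14394 averages 53.1 CPM in DjTcf4 RNAi 5 dpa libraries, against 193 CPM in control 5 dpa, and the gap is narrower in ratio in intact animals.

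Among genes with a mean of at least 5 CPM and the same sign in both fits, the 10 with the smallest p-values below 0 include these 3. Since they were taken by p-value, their size is a description. Their log2 values lay between -2.16 and -0.54 with all libraries and between -1.999 and -0.44 without DjTcf4 RNAi intact replicate 2, and each was smaller in size without it. Over all genes in both fits, leaving out that replicate moved the log2 value upward by a median of 0.049, which itself brings values below 0 nearer to 0. That library was the highest of the DjTcf4 RNAi intact libraries for 9 of the 10, and among all genes with a mean of at least 5 CPM it was the highest for 51.7%. Its part in these values beyond the fits without it was not tested.

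At 5 dpa the DjTcf4 RNAi libraries lay below every control library for all 10, and among all genes with a mean of at least 5 CPM for 3.93% (3.50% in the scaling without DjTcf4 RNAi intact replicate 2). The choice by p-value favours such genes, so the count is no evidence of its own. In intact animals the mean with DjTcf4 RNAi was below control for 4 and above control for 6, with all libraries. Among the 6 was a gene with a mean of 359 CPM with DjTcf4 RNAi, against 357 CPM in control. Without DjTcf4 RNAi intact replicate 2 its mean with DjTcf4 RNAi was 337 CPM, below control. The others of the 6 stayed above control. The 7 genes of the 10 that edgeR called in neither fit had adjusted p of at least 0.621 with all libraries.

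In 2 of these uncalled genes the groups were separate at both stages, in opposite directions. Among all 11437 genes with a mean of at least 5 CPM this held for 11 (0.0962%), and without DjTcf4 RNAi intact replicate 2 for 12 of 11445 (0.105%). The less abundant stood at 11.3, 10.4 and 13.1 CPM in DjTcf4 RNAi 5 dpa libraries, against 16.3, 18.7, 14.2 and 20.8 CPM in control 5 dpa. Intact libraries had 66.7, 83.4, 60.4 and 57.7 CPM with DjTcf4 RNAi, against 49.6, 53.6, 51.0 and 54.5 CPM in control. The log2 difference of differences was -0.95 (SE 0.213, edgeR adjusted p = 0.872), and -0.81 without DjTcf4 RNAi intact replicate 2 (SE 0.180, adjusted p = 0.390).

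The other was the most abundant of the 10, at a mean of 3384 CPM. It stood at 1519, 1466 and 1544 CPM in DjTcf4 RNAi 5 dpa libraries, against 1751, 1843, 1764 and 1984 CPM in control 5 dpa. In intact animals it stood at 5205, 6057, 4922 and 4976 CPM with DjTcf4 RNAi, against 4431, 4395, 4359 and 4538 CPM in control. DjTcf4 RNAi libraries lay below control at 5 dpa and above control in intact animals. The log2 value was -0.54 (SE 0.132, edgeR adjusted p = 0.961), or -0.44 without the replicate (SE 0.099, adjusted p = 0.390). On the CPM scale the differences were -1185 (SE 272) and -891 (SE 104). Its counts, too, were fractional in each library. Fractional counts occurred in 5 of the 10 genes below 0 and in 1 of the 10 with the smallest p-values above 0. They occurred in 3242 of the 17094 genes tested.

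Above 0, edgeR with its usual filter on low counts called no gene in either fit. With no filter and without DjTcf4 RNAi intact replicate 2 it called 1, DJKW.19668. With all libraries, DJKW.20677 had the smallest p-value among the 10 genes taken above 0. It stood at 198, 185 and 173 CPM in DjTcf4 RNAi 5 dpa libraries, against 150, 158, 161 and 157 CPM in control 5 dpa. Intact libraries had 195, 201, 195 and 213 CPM with DjTcf4 RNAi, against 230, 241, 262 and 283 CPM in control. The groups were separate at both stages, with DjTcf4 RNAi above control at 5 dpa and below control in intact animals.

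The log2 difference of differences of DJKW.20677 was 0.58 (SE 0.134, 95% interval 0.30 to 0.86, edgeR adjusted p = 0.872). Leaving out DjTcf4 RNAi intact replicate 2, which lay within its group here, gave 0.60 (SE 0.123, edgeR adjusted p = 0.263). DESeq2 called it with all libraries (log2 value 0.62, adjusted p = 0.0183), the 1 alternative of 22 that did. Without the replicate DESeq2 was again the only caller, in 1 alternative of 21 (log2 value 0.60, adjusted p = 0.00848). On the CPM scale the difference was 81.7 (SE 14.6) with all libraries and 85.7 (SE 16.0) without the replicate.

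DJKW.19668 had the next smallest p-value with all libraries among these genes. It stood at 50.9, 62.2 and 51.4 CPM in DjTcf4 RNAi 5 dpa libraries, against 29.1, 28.4, 34.1 and 36.4 CPM in control 5 dpa. In intact animals it stood at 22.6, 31.8, 18.8 and 26.3 CPM with DjTcf4 RNAi, against 30.1, 22.5, 27.9 and 23.3 CPM in control. The groups were separate at 5 dpa and overlapped in intact animals. The log2 value was 0.84 (SE 0.233, edgeR adjusted p = 0.961) with all libraries and, once DjTcf4 RNAi intact replicate 2 (the highest of its group) was left out, 0.997 (SE 0.200, edgeR adjusted p = 0.263). It was called in none of 22 alternatives with all libraries and in 2 of 21 without that replicate (edgeR with no filter, adjusted p = 0.0213, and DESeq2, adjusted p = 0.00882). Its p-value without the replicate, 7.91e-05, was smaller than that of DJKW.20677, 9.32e-05.

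The 10 genes above 0 with the smallest p-values had log2 values between 0.37 and 0.995 with all libraries and between 0.39 and 1.11 without the replicate. In size, 7 of them were larger without the replicate and 3 were smaller. The mean with DjTcf4 RNAi was above control at 5 dpa and below control in intact animals for all 10. At 5 dpa the log2 ratio was as small as 0.005. Among all genes with a mean of at least 5 CPM, opposite directions in either order held for 46.9%, or 43.6% without the replicate. A low interaction p favours opposite directions, so this count is a description. The groups were separate at 5 dpa for 4 of them, in intact animals for 7, and at both stages for 2. Among all genes with a mean of at least 5 CPM the groups were separate at 5 dpa for 5.72%, in intact animals for 3.39% and at both stages for 0.463%. Without the replicate the shares were 5.52%, 7.22% and 0.935%. Choosing genes by p-value favours separate groups, so nothing is read from these counts. The CPM difference exceeded 2 standard errors for all 10 genes above 0, both with all libraries and without the replicate. It did so for 8 of the 10 genes below 0 with all libraries and for 6 without the replicate, DJKW.3165 being one that no longer did. The choice by p-value also favours CPM differences that are large against their error. The share over all genes was not counted, so nothing is read from these counts either.

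**Figure D3:**
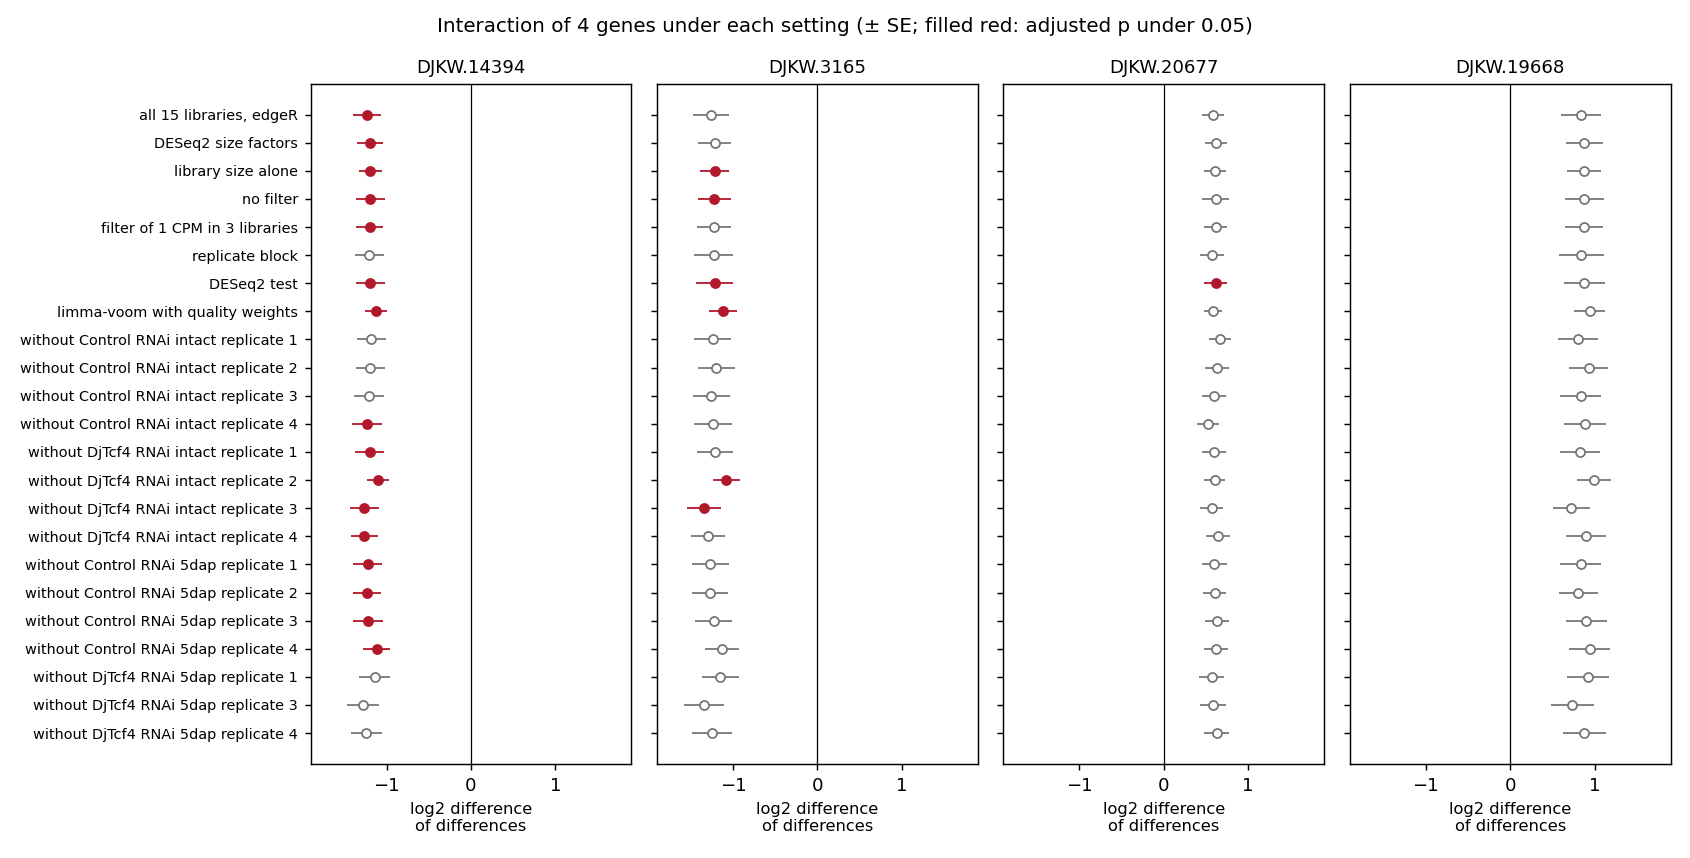
Log2 difference of differences (horizontal axes) with its SE for 4 genes under each setting (rows); filled red points have an adjusted p under 0.05. DJKW.14394 stays between -1.28 and -1.10 and is called in 15 of 22 alternatives, DJKW.3165 in 6, DJKW.20677 in 1 and DJKW.19668 in 0.

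A gene described earlier from these data as lower with DjTcf4 RNAi at both stages shows what a difference of differences near 0 looks like. It stood at 14.05, 13.2 and 21.6 CPM in DjTcf4 RNAi 5 dpa libraries, against 55.9, 61.4, 51.1 and 57.9 CPM in control 5 dpa. Intact animals had 17.4, 15.9, 18.1 and 18.4 CPM with DjTcf4 RNAi, against 52.0, 49.2, 52.6 and 59.4 CPM in control. The DjTcf4 RNAi libraries of the 2 stages overlapped with each other, as did the control libraries, and no DjTcf4 RNAi library reached a control one. The log2 difference of differences was -0.18 (SE 0.210, 95% interval -0.62 to 0.26, edgeR adjusted p = 0.961), and -0.20 without DjTcf4 RNAi intact replicate 2 (95% interval -0.61 to 0.21). A difference of 2-fold lay outside both intervals.

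Across all genes the differences of differences were small. With all libraries their middle 50% lay between -0.24 and 0.22 log2, and without DjTcf4 RNAi intact replicate 2 between -0.14 and 0.20. The medians were -0.04 and 0.03, and DESeq2 size factors in place of TMM gave medians of -0.0013 and 0.025. Library size alone gave -0.0052 with all libraries and -0.0031 without the replicate. The sign of the median thus changed with the replicate under TMM and DESeq2 size factors, and did not under library size alone. The size of the TMM median with all libraries also depended on the filter. It was -0.0056 when genes with at least 1 CPM in 3 libraries were kept, and -0.0098 with no filter. Without the replicate these filters gave 0.030 and 0.017. Leaving out the replicate turned the sign of 3618 genes (21.4% of the 16922 in both fits).

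An unadjusted p under 0.05 was found for 593 genes (3.47%) with all libraries and for 581 (3.43%) without the replicate, below the 855 and 846 that a uniform distribution would give. With all libraries, 394 of these were below 0 and 199 above, or 66.4% below. Without the replicate 274 were below and 307 above, or 47.2% below. Other scalings gave 59.5% and 66.7% below with all libraries, and 48.3% and 59.3% without the replicate (DESeq2 size factors and library size alone). In the fits without any other single library the share below 0 lay between 49.7% and 68.9%, the lower end without control 5 dpa replicate 3. With TMM scaling, the excess below 0 was thus not seen without DjTcf4 RNAi intact replicate 2, nor without control 5 dpa replicate 3.

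In both fits together, 371 genes had an unadjusted p under 0.05, 212 of them below 0 and 159 above, and none changed sign. The fits share 14 libraries, so this is no independent check. Of these genes, 138 below 0 and 77 above had a mean of at least 5 CPM. The ratio of DjTcf4 RNAi to control pointed in opposite directions at 5 dpa and in intact animals for 117 of the 138 and 67 of the 77. Among all genes with a mean of at least 5 CPM they did so for 46.9% with all libraries and 43.6% without the replicate. A low interaction p itself favours opposite directions, so the higher shares are a description. For the 138 and the 77, directions and ratios come from the group means of all 15 libraries, DjTcf4 RNAi intact replicate 2 included. They were not computed without that replicate. Among the 138, the median log2 ratio was -0.38 at 5 dpa and 0.26 in intact animals. Among the 77, the median was 0.22 at 5 dpa and -0.38 in intact animals. DJKW.14394 and DJKW.3165 were among the 19 of the 138 for which the mean with DjTcf4 RNAi was below control at both stages.

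**Figure D4:**
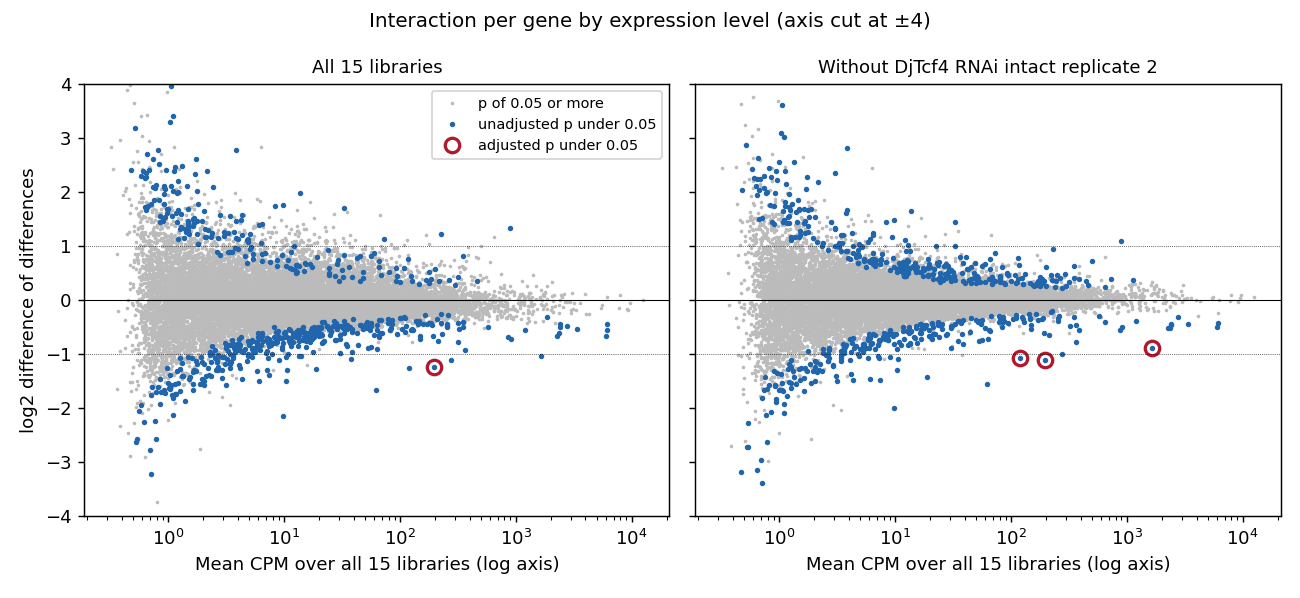
Log2 difference of differences (vertical axis, cut at ±4) against mean CPM (log axis) for each tested gene, with all 15 libraries (left) and without DjTcf4 RNAi intact replicate 2 (right); blue points have an unadjusted p under 0.05 and red circles an adjusted p under 0.05. The single circle on the left and the 3 on the right lie below 0, and the cloud is narrower on the right, where the biological coefficient of variation was 0.154 against 0.213.

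How large an undetected difference could be depended on expression. With all libraries, the 95% interval of 9206 genes (53.9%) lay within a 2-fold difference in either direction, and without the replicate that of 10571 (62.5%). For genes with a mean of at least 5 CPM the shares were 76.7% of 11437 and 87.4% of 11445. In the quartile of genes with the highest expression (median 87.8 CPM) the share was 89.8%, with a median SE of 0.200 log2. In the quartile with the lowest (median 1.42 CPM) it was 2.53%, with a median SE of 0.650. In that lowest quartile a 2-fold difference of differences was not detectable for most genes at this depth. The intervals take no account of the number of genes tested, so higher expression did not ensure a call at 2-fold. With all libraries, edgeR called DJKW.14394 at a log2 value of -1.23. It did not call DJKW.3165 at -1.26 (adjusted p = 0.102) or the abundant gene of 1658 CPM at -1.04 (adjusted p = 0.161).

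Without DjTcf4 RNAi intact replicate 2 the median SE in the quartile with the highest expression was 0.153 log2 and the share within a 2-fold difference 96.4%. In the second lowest quartile that share was 59.2% without the replicate and 44.5% with all libraries, and in the second highest 90.9% and 78.6%. A log2 value of at least 1 in size was seen for 912 genes with all libraries, of which 775 had a mean below 5 CPM. Of the other 137, 31 had an unadjusted p under 0.05. Without the replicate 50 genes with a mean of at least 5 CPM reached that size, 27 of them with an unadjusted p under 0.05.

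**Figure D5:**
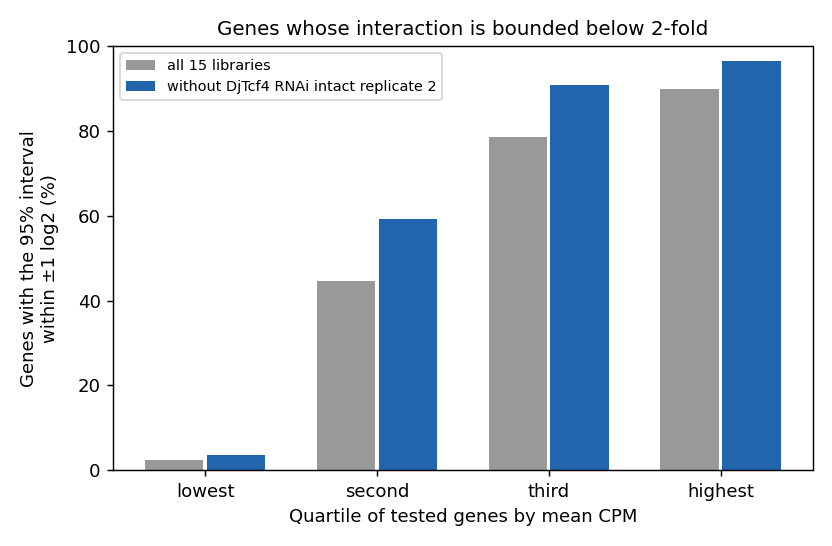
Share of genes (vertical axis, percent) whose 95% interval of the log2 difference of differences lies between -1 and 1, by quartile of mean CPM (horizontal axis), with all 15 libraries (grey) and without DjTcf4 RNAi intact replicate 2 (blue). The share is 2.53% in the lowest quartile and 89.8% in the highest with all libraries, and 3.47% and 96.4% without the replicate.

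The CPM scale was compared with the log2 scale for the 11437 genes with a mean of at least 5 CPM. The difference of differences had opposite signs on the 2 scales for 461 of them (4.03%), and for 0 of the 351 among them with an unadjusted p under 0.05. Without DjTcf4 RNAi intact replicate 2 the signs were opposite for 621 of 11445 (5.43%), and for 1 of the 378 with an unadjusted p under 0.05. For the genes followed above, the choice of scale therefore changed the size of a difference against its error, as in DJKW.14394, and not its direction.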

How the data were processed

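Expected counts per gene, which need not be whole, were deposited by the authors for 15 mRNA libraries; 8.23% of values were fractional. Tools listed in the submitters' processing notes are RSEM, HISAT2, Bowtie2 and DESeq2, with no role or version. Their genome build, annotation and strand setting were not given in the sources used here. Counts were rounded to whole numbers. Genes were kept by filterByExpr (minimum count 10, minimum total 15): 17094 of 38792 rows, or 16922 without DjTcf4 RNAi intact replicate 2. The interaction was tested with edgeR 4.0.16 in R 4.3.3 (TMM, 1 coefficient per group, robust quasi-likelihood fit, Benjamini-Hochberg over all tested genes) and checked on simulated counts. SEs are the absolute log2 value over the square root of F; 95% intervals use the t distribution. CPM use TMM-scaled totals. DESeq2 1.42.0 and limma 3.58.1 were alternatives.

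Genes described were those called in either fit and, at a mean of 5 CPM or more with the same sign in both, the 10 of smallest p on each side. This choice, the contrast and one further gene were set with earlier results of these data known. IDs have no names here, so lists of pathway and cell type genes were not used and tissue labels were not checked against markers. All 21 pairs of replicates differed by more than sampling noise (chi-square per degree of freedom 3.64 to 73.2).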

Additional observations from a re-analysis of the deposited data

Results flagged for a closer look

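Differences between stages in the response to DjTcf4 RNAi, by the interaction test, were found for DJKW.14394 (log2 -1.23 with all libraries and -1.10 without DjTcf4 RNAi intact replicate 2), and without that replicate also for DJKW.3165 (-1.08) and the abundant gene with a mean of 1658 CPM (-0.89).

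Single libraries lay far from the rest of their group in 4 of 30 group values examined, and chance marks about 1 in 20. The values are not independent, since some come from the same library and some from genes chosen by p-value. No excess over chance is therefore read from this count. Control 5 dpa replicate 4 held DJKW.14394 at 223 CPM, against 180 to 185 CPM for replicates 1, 2 and 3. DjTcf4 RNAi intact replicate 2 held the abundant gene at 2572 CPM, against 1801 to 1906 CPM. Control 5 dpa replicate 2 had 19888 genes with a count, against 21465 to 21650, and a median deviation from its group mean of 0.209 log2, against 0.130 to 0.137.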

How the results depend on the processing

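The number of genes called with all libraries (1) was 3 with library size alone, 3 with no filter, 7 with DESeq2, 4 with limma-voom and 0 with the replicate block (426 genes at an unadjusted p under 0.05, all in edgeR); leaving out 1 library gave 0 to 3. It was 0 in edgeR without control intact replicate 1, 2 or 3 or DjTcf4 RNAi 5 dpa replicate 1, 3 or 4 (357 to 716 at an unadjusted p under 0.05), 3 without DjTcf4 RNAi intact replicate 2 and 2 without DjTcf4 RNAi intact replicate 3. These 6 libraries and the replicate block were the 7 settings that lost DJKW.14394, with adjusted p from 0.0515 to 0.164. The number called without DjTcf4 RNAi intact replicate 2 (3) was 6 with no filter (1 of them above 0) and 14 with DESeq2; leaving out 1 more library gave 1 to 3, with 1 without control intact replicate 2, DjTcf4 RNAi intact replicate 1, or DjTcf4 RNAi 5 dpa replicate 1 or 4. The block left 2. The labels do not tie equal replicate numbers together, and deviations of same-numbered libraries correlated between -0.33 and 0.30 over 21 pairs (above 0.1 in 4). Their median correlation was -0.072, against 0.025 for pairs with different numbers. The 6 genes followed kept their sign under every alternative tried, CPM and a prior count of 2 included. Genes with an interval within 2-fold (9206) numbered 6592 with 99% intervals and 8129 to 10571 over the other alternatives. Fits that leave out a library also have fewer degrees of freedom, and the cause of these changes was not tested.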

Other observations

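Gene models with Maker IDs were few among the tested genes and low in expression. With all 15 libraries, 426 of them were tested, with a median of 1.75 CPM, against 16668 genes with DJKW IDs and a median of 12.9 CPM. An unadjusted p under 0.05 for the difference of differences was found for 19 of the Maker models (4.46%) and 574 of the DJKW genes (3.44%). Without DjTcf4 RNAi intact replicate 2 the numbers were 15 of 415 (3.61%) and 566 of 16507 (3.43%).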
